A study of Homo sapiens with 6 samples.

Results

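The genes described here are 6 of 7 named genes linked to the prostate cell surface or to androgen signalling: the STEAP family members STEAP1, STEAP2, STEAP3 and STEAP4, the transporter ABCC4 and the kinase CAMKK2. They were found by matching symbols to the Ensembl identifiers of the deposited table, and all 6 passed the filter on low values, among 17742 genes tested of 17811 listed. The cold and menthol channel TRPM8 is the remaining name and was not analysed here. The data are poly(A) RNA-seq of 22RV1 cells, an established line of human prostate cancer. The medium was RPMI-1640 plus fetal bovine serum, and the cells stably expressed short hairpin RNA against 1 of 3 targets: luciferase (shLuc, the control), the inositol monophosphatase gene IMPA1 (shIMPA1) or the guanine nucleotide synthesis gene IMPDH2 (shIMPDH2). Each group had 2 libraries. The labels do not say whether these were separate cultures, separate stable lines or separate hairpins against the same target, so the spread that p-values are measured against may be technical or may include differences between hairpins. Off-target effects and those of lowering the named gene cannot be told apart.

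STEAP proteins (six-transmembrane epithelial antigens of the prostate) are membrane proteins with a heme-binding core. STEAP2, STEAP3 and STEAP4 pass electrons from NADPH across the membrane and reduce iron and copper outside the cell or in endosomes, so that the metals can be taken up. STEAP1 lacks the NADPH-binding domain and is best known as a surface antigen of prostate cancer. ABCC4 (MRP4) exports cyclic nucleotides, prostaglandins and steroid conjugates. CAMKK2 is a cytosolic kinase rather than a membrane protein. It activates AMPK and the calmodulin-dependent kinases in response to calcium and is known as an androgen-induced gene of prostate cells.

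In GRCh38 with GENCODE release 29, STEAP1 (ENSG00000164647) lies on chromosome 7 from 90154375 to 90164829, and STEAP2 (ENSG00000157214) follows it on the same strand from 90167590 to 90238137. Only 2760 bases separate them. STEAP4 (ENSG00000127954) lies 1847 kb away on the opposite strand of chromosome 7, from 88270892 to 88306891. STEAP3 (ENSG00000115107) is on chromosome 2 from 119223831 to 119265652, ABCC4 (ENSG00000125257) on chromosome 13 from 95019829 to 95301475, and CAMKK2 (ENSG00000110931) on chromosome 12 from 121237691 to 121298308. All 6 are protein coding. The antisense gene STEAP2-AS1 overlaps both STEAP1 and STEAP2. Its mean value was 7.98 normalized reads, and whether the counting separated strands is not given in the sources used here.

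The 250 bases before a RefSeq start (GRCh38.p14) are shown for STEAP1, STEAP2 and STEAP3. STEAP1 and STEAP2 both rose in shIMPDH2, and STEAP3 fell in both knockdown groups. Capitals mark the GC box GGGCGG, on either strand, a common letter string of promoters bound by SP1-type factors.
STEAP1, chr7:90154219-90154468, plus strand: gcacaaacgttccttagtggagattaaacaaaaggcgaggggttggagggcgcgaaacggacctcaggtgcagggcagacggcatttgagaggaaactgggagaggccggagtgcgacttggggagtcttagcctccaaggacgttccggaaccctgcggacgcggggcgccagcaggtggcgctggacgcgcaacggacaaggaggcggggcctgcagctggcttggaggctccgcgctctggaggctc
STEAP2, chr7:90211490-90211739, plus strand: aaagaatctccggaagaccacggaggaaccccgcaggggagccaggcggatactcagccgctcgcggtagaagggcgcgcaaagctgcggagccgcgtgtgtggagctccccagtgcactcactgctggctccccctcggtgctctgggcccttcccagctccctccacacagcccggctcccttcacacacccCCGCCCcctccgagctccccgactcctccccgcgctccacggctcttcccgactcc
STEAP3, chr2:119223584-119223833, plus strand: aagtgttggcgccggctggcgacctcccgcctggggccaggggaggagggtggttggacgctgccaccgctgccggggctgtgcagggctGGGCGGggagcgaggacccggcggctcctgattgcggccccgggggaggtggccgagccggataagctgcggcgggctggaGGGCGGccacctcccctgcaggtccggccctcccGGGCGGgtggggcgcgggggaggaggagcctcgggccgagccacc
The STEAP1 window had no GC box, the STEAP2 window had 1 and the STEAP3 window had 3, against at least 1 in 42.5% of 34943 RefSeq windows of this length. GC content was 64.4%, 69.6% and 78.4%, against a median of 58% over all windows. The STEAP2 window lies inside the longer GENCODE gene body. None of the 3 windows held the full androgen response element (AGAACA and TGTTCT with any 3 bases between), which was in 0.00286% of all windows, or its half-site TGTTCT on either strand, which was in 12.4%. Another RefSeq window of STEAP2, chr7:90213570-90213819, is not shown. It had no GC box and a GC content of 32.8%. Such counts describe only these letters in these windows.

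Per kilobase of exon, STEAP1 took most of the family's RNA in every library. STEAP1 made up 89.7% to 93.4% of the summed normalized reads per kb of the 4 STEAP genes, STEAP2 6.24% to 9.41%, STEAP3 0.179% to 0.836% and STEAP4 0.0039% to 0.0276%. In shLuc, the level per kb was 6785 for STEAP1, 632 for STEAP2, 54.6 for STEAP3 and 1.65 for STEAP4. CAMKK2 stood at 379 per kb and ABCC4 at 27.8. By mean level per kb over the 6 libraries, STEAP1 ranked 98 among all listed genes, STEAP2 1671, CAMKK2 3148, STEAP3 11834, ABCC4 12078 and STEAP4 17677. The order STEAP1, STEAP2, CAMKK2 held in every library, while ABCC4 stood below STEAP3 in shLuc and shIMPDH2 means and above it in shIMPA1. These per-kb levels use the summed length of all annotated exons, so a gene that uses a short isoform is set too low.

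Libraries held 20828900 to 27773294 reads in listed genes. IMPA1 fell from 1476 to 1029 in shIMPA1 and IMPDH2 from 4651 to 3049 in shIMPDH2 (limma adjusted p = 0.0145 and 0.00999). The IMPA1 call ended without shLuc replicate 1 (adjusted p at most 0.159), and that of IMPDH2 without shLuc replicate 2 or either shIMPDH2 library (at most 0.127). All 9 luminal prostate markers had values (sum 95844 to 127138 per library). Of the other lists, 4 of 7 neuroendocrine markers summed to 11693 to 13281, 1 of 4 immune markers to 9.0 to 23.4, and none of 4 endothelial markers had a row. The basal list (4 of 5 listed) summed to 653 to 823, most of it DST. Its keratins differed between shLuc and shIMPDH2 and also between the 2 shIMPA1 libraries. KRT5 was at 0.90 and 1.75 with shLuc, 0 and 88.9 with shIMPA1, and 79.7 and 84.4 with shIMPDH2. KRT14 and KRT15 also had their higher shIMPA1 value in replicate 2. The part of these basal keratins in the STEAP1, STEAP2 and ABCC4 results was not tested.

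Against shLuc, STEAP3 fell and ABCC4 rose in shIMPA1, while STEAP1 and STEAP2 rose and STEAP3 fell in shIMPDH2. Between the knockdown groups, STEAP1 and STEAP2 were higher and ABCC4 was lower in shIMPDH2. CAMKK2 and STEAP4 passed the test in none of the 3 comparisons. In shIMPA1 2 of the 6 genes were called, 1 up and 1 down, where 30.2% of all tested genes were called, 14% up and 16.2% down. In shIMPDH2 3 of 6 were called, 2 up and 1 down, against 17% of all genes, 7.86% up and 9.15% down. Between the knockdowns 3 of 6 were called, 2 higher and 1 lower in shIMPDH2, against 26.1% of all genes, 13.5% higher and 12.6% lower. The shIMPA1 and shIMPDH2 comparisons share the shLuc libraries. A call is an adjusted p under 0.05 from limma, over all genes tested, and each fold change comes from log2(value + 1). Without shLuc replicate 2, no call of the 6 genes remained in either comparison against shLuc. Of the 8 calls in the 3 comparisons, only the ABCC4 difference between the knockdowns passed in all 6 fits that each left out 1 library.

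**Figure D1:**
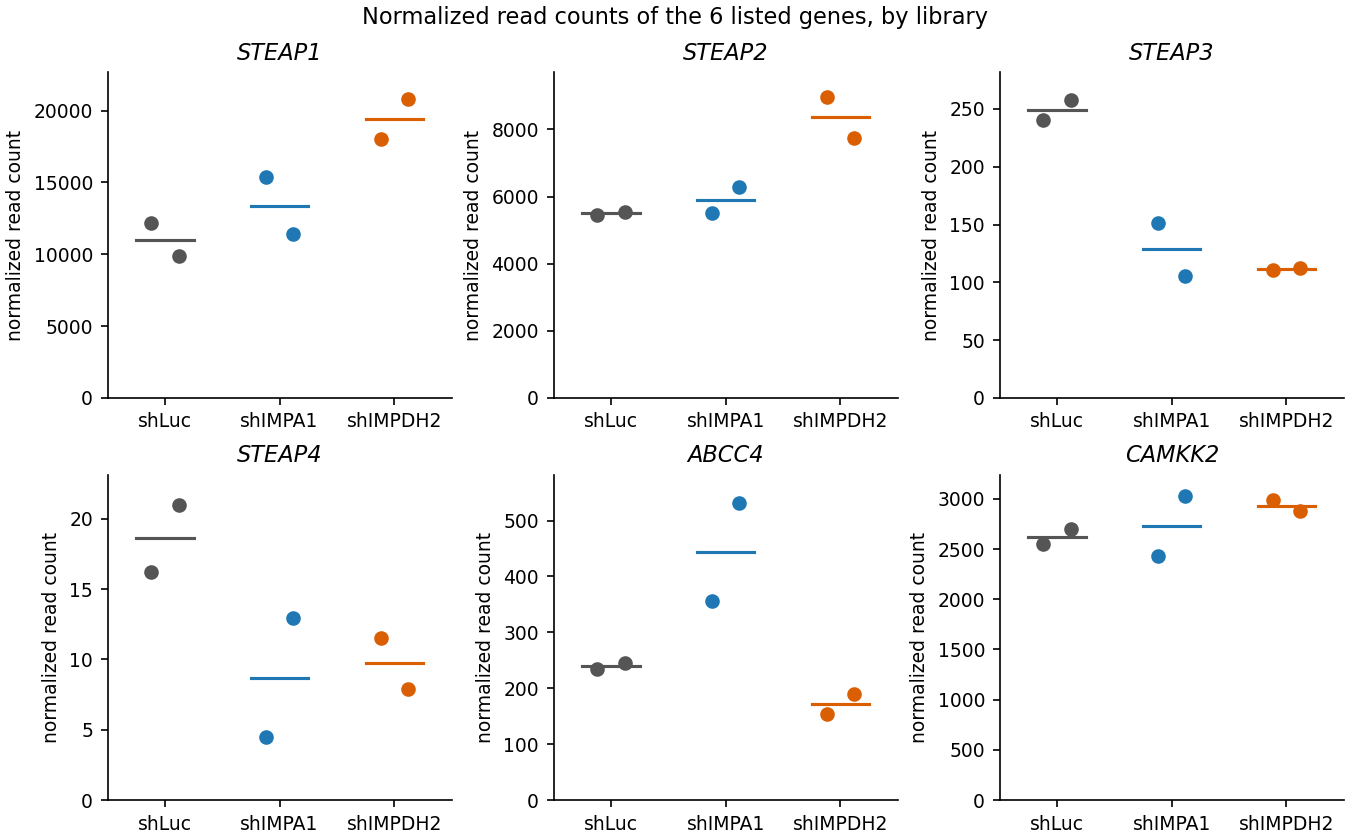
Normalized read counts of the 6 genes (vertical axes, from 0) in each library (points) by group (horizontal axes), with bars at the group means of 2 libraries. Both shIMPDH2 libraries lie above all others for STEAP1 (18034 and 20836) and STEAP2, and both shLuc libraries lie above all others for STEAP3 (240 and 258).

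STEAP1, the surface antigen, had 12189 and 9863 normalized reads with shLuc, 15383 and 11375 with shIMPA1, and 18034 and 20836 with shIMPDH2. Both shIMPDH2 libraries were the highest of the 6, and the shIMPA1 range overlapped that of shLuc. In shIMPDH2 STEAP1 rose 1.77-fold (95% confidence interval 1.36 to 2.31), from 11026 ± 1645 (SD, n = 2) to 19435 ± 1981 (SD, n = 2), with a log2 fold change of 0.82 (SE 0.17, limma adjusted p = 0.00927). In shIMPA1 the mean was 13379 ± 2834 (SD, n = 2) and the log2 difference from shLuc was 0.27 (95% interval -0.11 to 0.65, limma adjusted p = 0.270). STEAP1 was 1.47-fold higher in shIMPDH2 than in shIMPA1 (log2 0.55, limma adjusted p = 0.0388). The rise against shLuc lost its call without shLuc replicate 2 (log2 0.67, limma adjusted p = 0.122), shIMPDH2 replicate 1 (0.93, 0.0531) or replicate 2 of that group (0.72, 0.125), with the same direction each time. The difference between the knockdowns lost its call in every such fit (limma adjusted p = 0.0569 to 0.262, log2 0.33 to 0.66) except the one without shIMPA1 replicate 1, where it was 0.77. Without shIMPA1 replicate 2, STEAP1 passed in shIMPA1 as well (log2 0.49, limma adjusted p = 0.0177).

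STEAP2, a metalloreductase of the same locus, had 5459 and 5550 normalized reads with shLuc, 5508 and 6288 with shIMPA1, and 8979 and 7748 with shIMPDH2. As for STEAP1, the 2 shIMPDH2 libraries stood above the other 4. STEAP2 rose 1.52-fold in shIMPDH2 (interval 1.24 to 1.85), from 5504 ± 64.2 (SD, n = 2) to 8364 ± 871 (SD, n = 2). The log2 fold change was 0.60 (SE 0.13, limma adjusted p = 0.0102). Its level in shIMPA1, 5898 ± 551 (SD, n = 2), was not told apart from shLuc (log2 0.10, interval -0.19 to 0.38, limma adjusted p = 0.612). The level in shIMPDH2 was 1.42-fold that in shIMPA1 (log2 0.50, limma adjusted p = 0.0163). Leaving out any 1 of shLuc replicate 1 (0.59, adjusted p = 0.0971), shLuc replicate 2 (0.61, 0.0859), shIMPDH2 replicate 1 (0.49, 0.130) or shIMPDH2 replicate 2 (0.71, 0.0522) ended the limma call against shLuc. The call between the knockdowns ended without shIMPDH2 replicate 1 (0.40, 0.167) or replicate 2 (0.61, 0.0619). With no mean-variance trend in limma, STEAP1 and STEAP2 both lost their calls, against shLuc (limma adjusted p = 0.0621 and 0.0565) and between the knockdowns (0.117 and 0.064), and STEAP1 lost the latter when only these 2 groups were compared (0.0566).

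STEAP1 and STEAP2 were both higher in shIMPDH2, but within groups of 2 libraries they varied in opposite directions, which was not tested. In each of the 3 groups, the library with more STEAP1 had less STEAP2, by little in shLuc (STEAP2 at 5459 and 5550). The ratio of their normalized reads per kb was therefore 12 and 9.53 with shLuc, 15.0 and 9.70 with shIMPA1, and 10.8 and 14.4 with shIMPDH2, and the 3 ranges overlapped. The root mean square difference between their centred log2 patterns over the 6 libraries was 0.26, against 0.21 between STEAP2 and CAMKK2 and between 0.59 and 0.95 for every pair of STEAP genes that included STEAP3 or STEAP4. This distance falls as 2 genes vary less, so a small value need not mean shared changes.

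STEAP1B, a STEAP1 paralog elsewhere on chromosome 7, was near the filter and passed in no comparison. Its mean was 16.9 normalized reads in shLuc, 22.5 in shIMPA1 and 14.8 in shIMPDH2. The log2 difference was 0.36 in shIMPA1 and -0.21 in shIMPDH2 (limma adjusted p = 0.515 and 0.748). Only uniquely aligned reads were counted, per the labels' protocols, so reads shared by the 2 copies would be missing from both.

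STEAP3, the ferrireductase of the endosomal transferrin cycle, had 240 and 258 normalized reads with shLuc, 152 and 105 with shIMPA1, and 111 and 112 with shIMPDH2. All 4 knockdown libraries lay below both shLuc libraries. STEAP3 fell 1.96-fold in shIMPA1 (interval 1.45 to 2.66), from 249 ± 12.6 (SD, n = 2) to 128 ± 32.8 (SD, n = 2). The log2 fold change was -0.97 (SE 0.20, limma adjusted p = 0.00435). In shIMPDH2 it fell 2.22-fold (interval 1.64 to 3.0), to 112 ± 1.11 (SD, n = 2). The log2 fold change was -1.15 (limma adjusted p = 0.00303). A fall in both groups was called for 4.48% of all tested genes, in comparisons that share their controls. The knockdowns were not told apart (log2 -0.18, interval -0.61 to 0.26, limma adjusted p = 0.546). Without shLuc replicate 2, STEAP3 stood at -0.92 in shIMPA1 (limma adjusted p = 0.0626) and -1.10 in shIMPDH2 (0.0637). The antisense gene STEAP3-AS1 overlaps this locus in the annotation and was not analysed here.

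STEAP3 moved together with the summed RNA of listed stromal marker genes, but not with each of them. In these cultured cells 6 of 7 listed stromal markers had a row, and their summed value was 1243 to 1376 in shLuc against 342 to 480 in the 4 knockdown libraries. Most of that difference was VIM, the intermediate filament gene, at 658 and 753 in shLuc and 40.4 to 70.9 in the others. Of 5 stromal markers tested against shLuc, 4 fell with the IMPA1 hairpin, 3 with the IMPDH2 hairpin, and none rose. LUM fell with either (log2 -2.55 and -3.80, limma adjusted p = 0.00162 and 0.000259). COL1A1 did not pass in shIMPA1 (log2 -0.19), nor did ACTA2 or COL3A1 in shIMPDH2 (-0.13 and -1.40). DCN, a defining fibroblast gene, was at 5.78 to 9.90 throughout. It did not pass the filter, so a change in it could not be judged. The part of the stromal markers in the STEAP3 result was not tested. In bulk RNA, fewer cells of a kind and less RNA per cell cannot be told apart.

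STEAP4, the family member best known from fat and inflamed tissue, was at the edge of detection. It had 18 and 24 recovered reads with shLuc, 5 and 15 with shIMPA1, and 10 and 7 with shIMPDH2, which is 79 reads in all. In normalized reads these were 16.2 and 21, 4.49 and 12.9, and 11.6 and 7.87. Both shLuc libraries were highest, yet no difference passed: the log2 difference from shLuc was -1.15 in shIMPA1 (SE 0.51, limma adjusted p = 0.109) and -0.88 in shIMPDH2 (limma adjusted p = 0.260). Without shIMPA1 replicate 2, which had 15 of the 20 shIMPA1 reads, the value was -1.83 (limma adjusted p = 0.00977).

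ABCC4, the exporter of cyclic nucleotides and prostaglandins, was the only one of the 6 genes whose mean stood above shLuc in 1 knockdown and below it in the other. It had 235 and 246 normalized reads with shLuc, 355 and 531 with shIMPA1, and 155 and 190 with shIMPDH2, so that none of the 3 groups overlapped. ABCC4 rose 1.80-fold in shIMPA1 (interval 1.33 to 2.44), from 240 ± 7.76 (SD, n = 2) to 443 ± 124 (SD, n = 2). The log2 fold change was 0.85 (SE 0.20, limma adjusted p = 0.00861). In shIMPDH2, at 172 ± 24.9 (SD, n = 2), the log2 difference was -0.48 (interval -0.92 to -0.05) and did not pass with all 6 libraries (limma adjusted p = 0.119). Between the knockdowns it was 2.52-fold lower in shIMPDH2 (log2 -1.34, SE 0.20, limma adjusted p = 0.000872), which held in all 6 fits without 1 library (adjusted p at most 0.0219).

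The size of the ABCC4 rise rested on the spread between the shIMPA1 libraries. It was 0.56 without shIMPA1 replicate 2 and 1.14 without shIMPA1 replicate 1, on the log2 scale. The call ended without shLuc replicate 1 (log2 0.82, limma adjusted p = 0.0836) or shLuc replicate 2 (0.88, 0.0678). In shIMPDH2, ABCC4 passed when only the 2 groups were compared (log2 -0.48, limma adjusted p = 0.00398), and likewise without shIMPA1 replicate 1 (0.00224) or replicate 2 (0.00295), with the value itself at -0.48 each time.

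CAMKK2 had 2549 and 2699 normalized reads with shLuc, 2429 and 3028 with shIMPA1, and 2990 and 2874 with shIMPDH2. Its shIMPA1 libraries lay on either side of both controls, and its shIMPDH2 libraries were slightly above them. No comparison passed: the log2 difference from shLuc was 0.05 in shIMPA1 (interval -0.24 to 0.34, limma adjusted p = 0.812) and 0.16 in shIMPDH2 (interval -0.13 to 0.45, limma adjusted p = 0.434). The upper bounds correspond to 1.26-fold and 1.36-fold. CAMKK1, the other kinase of this kind, had means of 162, 202 and 180 in shLuc, shIMPA1 and shIMPDH2 and passed in no comparison with all libraries. Without shIMPA1 replicate 1 its log2 difference in shIMPA1 was 0.62 (limma adjusted p = 0.00246), and between the knockdowns -0.47 (0.0301).

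**Figure D2:**
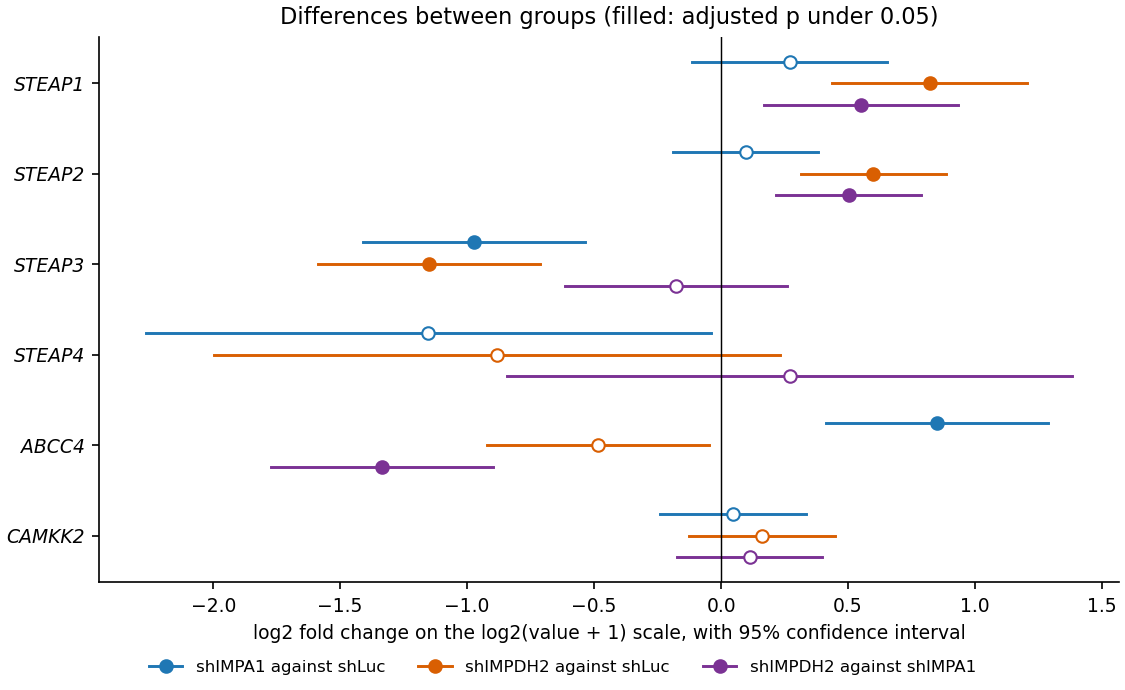
Log2 fold change (horizontal axis, on the log2(value + 1) scale) of each gene in the 3 comparisons, as points with 95% confidence intervals from limma over 6 libraries, filled where the adjusted p was under 0.05. The STEAP1 and STEAP2 points in shIMPDH2 (0.82 and 0.60) lie right of 0, both STEAP3 points against shLuc lie left of it, and ABCC4 has points on either side.

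**Figure D3:**
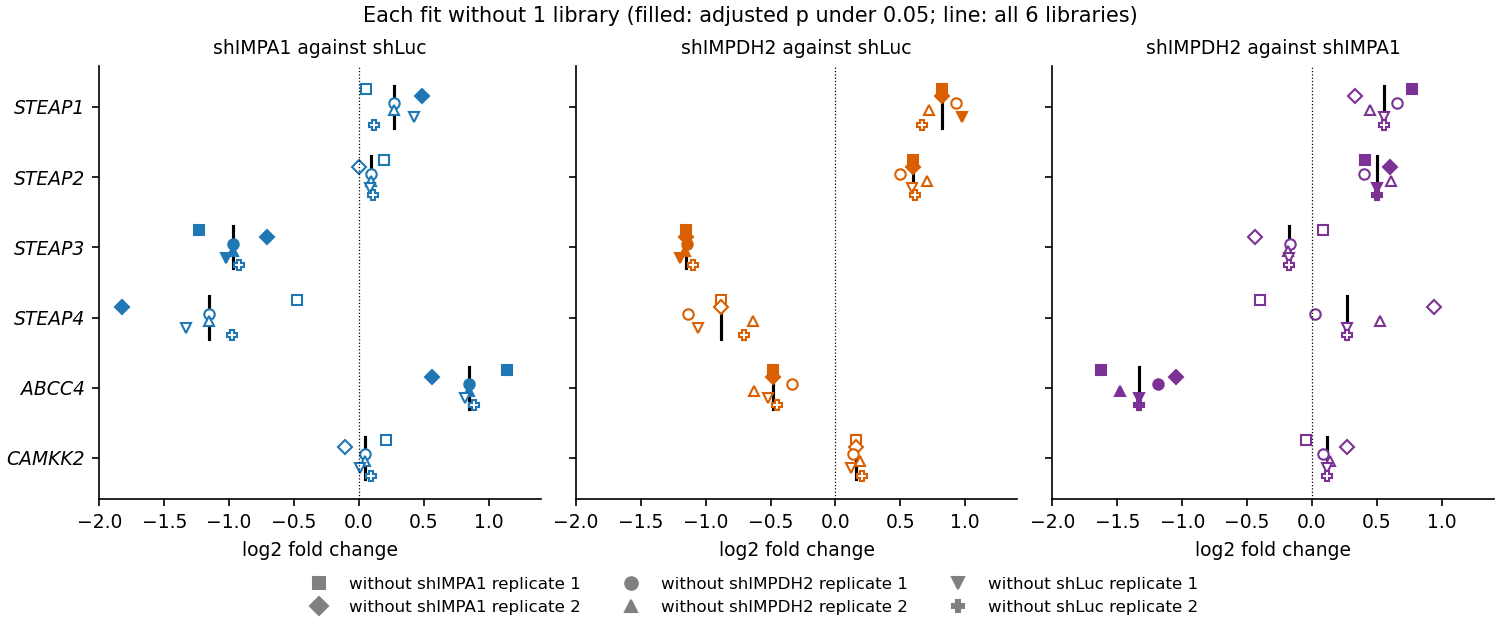
Log2 fold change of each gene (horizontal axes) in the 6 fits that each left out 1 library (symbols, filled where the limma adjusted p was under 0.05), with vertical lines at the values from all 6 libraries. All 6 symbols are filled for ABCC4 between the knockdowns, whereas STEAP4 in shIMPA1 spreads from -1.83 to -0.48.

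Groups did not overlap for 3 of the 6 genes in shIMPA1 against shLuc (66.4% of all tested genes), for 6 of 6 in shIMPDH2 against shLuc (66.2%) and for 3 of 6 between the knockdowns (63.9%). With 2 libraries a group, such separation is common.

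Genes beside STEAP1 and STEAP2 rose in shIMPDH2 as well. From STEAP1 onward, 6 consecutive tested genes rose: STEAP1, STEAP2, CFAP69, ENSG00000234459, ENSG00000225498 and FAM237B. These were the only 6 of 35 tested genes within 3 Mb of STEAP1 that rose in shIMPDH2, while 5 fell and the median log2 change was -0.03. Over all genes, 7.86% rose. The 6 include STEAP1, on which the window was centred, and STEAP2. Apart from CFAP69, the genes named beside them were singled out after their values were seen. Mean values over the 6 libraries were 1844 for CFAP69, 53.6 for ENSG00000234459, 26.9 for ENSG00000225498 and 60.4 for FAM237B. Whether the counting separated strands is not given, and whether these genes rose independently of each other was not tested.

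CFAP69, which encodes a flagellar protein and starts 90.8 kb from the start of STEAP1, changed more than either STEAP gene. It had 944 ± 45.8 normalized reads (SD, n = 2) with shLuc, 1348 ± 130 with shIMPA1 and 3240 ± 77.3 with shIMPDH2. It rose 3.43-fold in shIMPDH2 (log2 1.78, SE 0.12, limma adjusted p = 8.43e-06), and passed in all 6 fits without 1 library. In shIMPA1 CFAP69 rose 1.43-fold (log2 0.51, limma adjusted p = 0.00912), a call that ended when either shLuc library was left out (adjusted p at most 0.091). FAM237B, at 162 kb, rose by a log2 fold change of 1.83 in shIMPDH2 (limma adjusted p = 0.000432), also in all 6 such fits. Its 0.69 in shIMPA1 (limma adjusted p = 0.0425) lost the call without any 1 library of shLuc or shIMPDH2 (at most 0.163). The unnamed antisense gene ENSG00000234459 rose by 1.25 and the long noncoding gene ENSG00000225498 by 2.15 on the log2 scale in shIMPDH2 (limma adjusted p = 0.00723 and 0.00565). The call of ENSG00000234459 ended without any 1 library of shLuc or shIMPDH2 (at most 0.0853), and that of ENSG00000225498 without shLuc replicate 2 or shIMPDH2 replicate 2 (at most 0.0795).

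The tested genes on either side of this run did not pass. On the far side of STEAP1, the pseudogene DPY19L2P4 had a log2 difference of 0.22 in shIMPDH2 (limma adjusted p = 0.470). Beyond FAM237B, GTPBP10 stood at 0.09, CLDN12 at 0.17 and CDK14 at -0.35 (limma adjusted p = 0.671, 0.393 and 0.239). In shIMPA1, 4 of the 35 genes rose and 12 fell, with a median of -0.33, where 14% and 16.2% of all genes did so. Between the knockdowns, 16 of the 35 were higher and 3 lower in shIMPDH2, with a median log2 difference of 0.41. Over all genes, 13.5% were higher and 12.6% lower. STEAP4, 1847 kb from STEAP1, was outside the run.

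**Figure D4:**
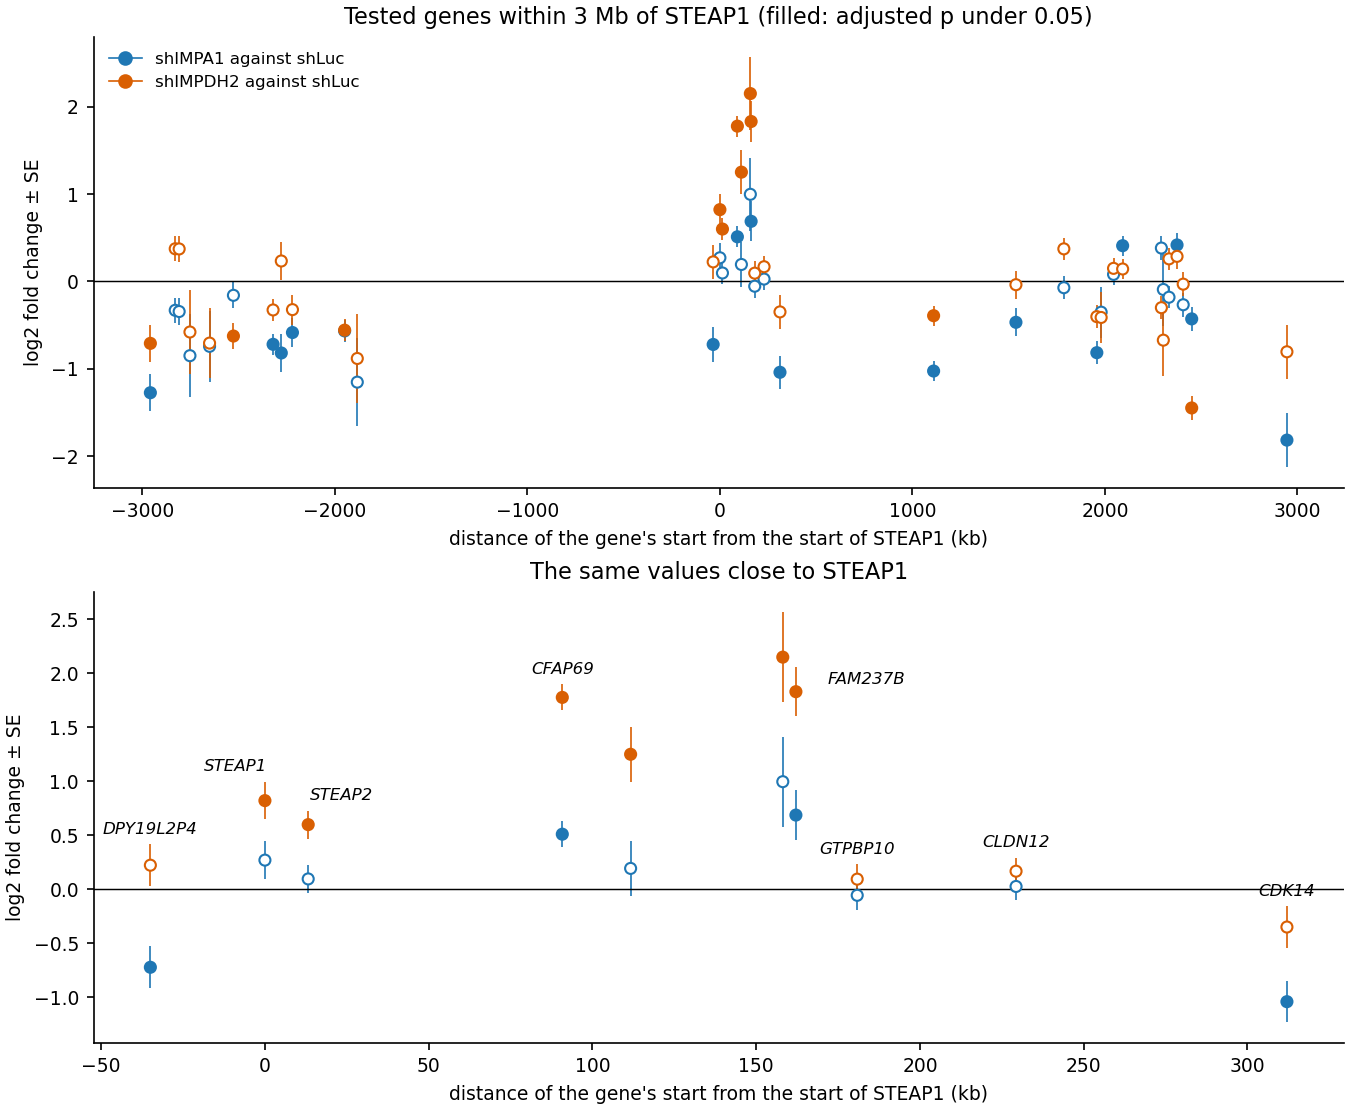
Log2 fold change ± SE (vertical axes) of tested genes against the distance of their start from the start of STEAP1 in kb (horizontal axes), within 3 Mb (upper panel) and close to STEAP1 (lower panel), filled where the limma adjusted p was under 0.05. In shIMPDH2 the points from STEAP1 to FAM237B, at 162 kb, lie above 0 and are filled, and their neighbours GTPBP10 and DPY19L2P4 are open.

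The nearest tested coding genes of the other members did not all move with them. SRI (sorcin, a calcium-binding protein) next to STEAP4 fell in shIMPA1 and shIMPDH2 (log2 -0.57 and -0.56, limma adjusted p = 0.00629 and 0.0119). DZIP1 beside ABCC4 fell in both as well (log2 -1.85 and -0.98, limma adjusted p = 3.59e-05 and 0.00322), the reverse of ABCC4 in shIMPA1, whereas SOX21 on its other side stood at 0.02 and 0.04. Beside CAMKK2, the ATP-gated channel gene P2RX4 rose in both (0.69 and 0.69, limma adjusted p = 0.0046 and 0.00857), while ANAPC5 did not pass. The genes flanking STEAP3, INSIG2 and C2orf76, had log2 differences of -0.47 and 0.20 in shIMPA1, of which only that of INSIG2 passed (limma adjusted p = 0.0366). Of these calls, only that of DZIP1 in shIMPA1 held in all 6 fits without 1 library. The others ended without shLuc replicate 1 or replicate 2 or both (largest adjusted p 0.0732 and 0.123 for SRI, 0.0602 for DZIP1 in shIMPDH2, 0.0509 and 0.0964 for P2RX4, 0.262 for INSIG2). Those of SRI and P2RX4 in shIMPDH2 and of INSIG2 also ended when either shIMPDH2 library was left out.

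Genes with the most similar pattern were sought by the root mean square difference of centred log2 values over the 6 libraries, among 12172 genes with a mean of at least 100. For STEAP1 the closest was MPC2, a subunit of the mitochondrial pyruvate carrier (0.040), which had 9541 and 7490 normalized reads with shLuc, 11259 and 8874 with shIMPA1, and 14193 and 16551 with shIMPDH2. It followed STEAP1 between the 2 libraries of each group, a likeness that the measure itself selects for. WDSUB1 came next (0.063). For STEAP2 the closest were the Golgi protein gene GOLGB1 (0.053) and the endosome recycling gene RAB11FIP1 (0.054).

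STEAP3 was closest to 2 homeobox genes, PRRX1 (0.036) and NKX6-1 (0.056). PRRX1, known from mesenchymal cells, had 251 and 270 normalized reads with shLuc, 159 and 117 with shIMPA1, and 114 and 119 with shIMPDH2. ABCC4 was closest to the complement gene C3 (0.061) and the mitochondrial carrier gene SLC25A43 (0.096), and CAMKK2 to the proteasome subunit gene PSMD12 (0.022) and CLDN12 (0.023). For STEAP4, with few reads, the nearest were farther away: SLC40A1 (0.30), which encodes the iron exporter ferroportin, and INPP4B (0.32). Such neighbours among so many candidates describe 6 libraries only.

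The work of STEAP reductases is linked to iron and copper uptake. Of 20 tested genes of cellular iron handling, 5 rose and 3 fell in shIMPA1, and 3 rose and none fell in shIMPDH2, with medians of 0.07 and 0.05 against 0.02 and -0.01 over all genes. For this and the following lists, the shares over all tested genes were 14% risen and 16.2% fallen in shIMPA1, and 7.86% and 9.15% in shIMPDH2. HMOX1, the heme-degrading enzyme, rose from 113 ± 3.39 (SD, n = 2) to 231 ± 6.90 (SD, n = 2) in shIMPDH2 (log2 1.03, limma adjusted p = 0.0021), in all 6 fits without 1 library. In shIMPA1 it rose by 0.61 (limma adjusted p = 0.019), a call that ended when either shLuc library was left out (adjusted p at most 0.123). FTL, the ferritin light chain, rose from 4980 ± 139 (SD, n = 2) to 9170 ± 2413 (SD, n = 2) in shIMPA1 (limma adjusted p = 0.0032), also in every such fit. In shIMPDH2 FTL reached 9763 ± 450 (SD, n = 2) (limma adjusted p = 0.0028), which ended without shLuc replicate 1 or shIMPDH2 replicate 2 (adjusted p at most 0.0551). FTL has processed pseudogene copies, so its count is less certain.

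SLC40A1, the exporter that releases iron from cells, fell in shIMPA1 from 370 ± 11.8 (SD, n = 2) to 178 ± 62.2 (SD, n = 2) (log2 -1.10, limma adjusted p = 0.00309). ACO1, an aconitase that doubles as an iron-regulatory RNA-binding protein, fell there by 0.76 on the log2 scale (limma adjusted p = 0.00149). Both calls held in the 6 fits without 1 library. In shIMPDH2 neither passed with all libraries (log2 -0.54 and -0.31, limma adjusted p = 0.102 and 0.115), and both passed when either shIMPA1 library was left out.

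Of 14 tested copper genes, 1 rose and 4 fell in shIMPA1, where 30.2% of all genes were called either way. In shIMPDH2, 1 rose and none fell, against 17% of all genes called, and the median was near 0 in both (0.06 and 0.03). SOD1, the copper and zinc superoxide dismutase, fell from 11014 ± 1010 (SD, n = 2) to 4475 ± 303 (SD, n = 2) in shIMPA1 (log2 -1.30, limma adjusted p = 9.49e-05). The metallothionein gene MT2A fell there from 1243 ± 71.9 (SD, n = 2) to 728 ± 66.3 (SD, n = 2) (limma adjusted p = 0.00118). Both held in all 6 fits without 1 library. The copper chaperone genes COX17 and ATOX1 also fell (log2 -0.92 and -0.61, limma adjusted p = 0.00892 and 0.00479). The COX17 call ended without shLuc replicate 1 (limma adjusted p = 0.112), and that of ATOX1 when either shLuc library was left out (at most 0.0542).

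Among the other ABCC transporters, 3 of 9 tested rose and 2 fell in shIMPA1, and 3 rose and 1 fell in shIMPDH2. ABCC11, another exporter of cyclic nucleotides and steroid conjugates, rose from 21.7 ± 6.47 (SD, n = 2) to 190 ± 74.3 (SD, n = 2) in shIMPA1 (log2 3.05, limma adjusted p = 0.000102). ABCC6 rose there from 138 ± 0.23 (SD, n = 2) to 348 ± 29.5 (SD, n = 2), and ABCC5, a further exporter of cyclic nucleotides, from 1190 ± 35.6 (SD, n = 2) to 2006 ± 152 (SD, n = 2) (limma adjusted p = 0.000159 and 0.00124). ABCC9, a regulatory subunit of potassium channels, fell in both knockdowns, from 202 ± 16.6 (SD, n = 2) to 64.0 ± 17.3 (SD, n = 2) and 41.1 ± 5.61 (SD, n = 2) (limma adjusted p = 0.000602 and 0.000153). All of these calls held in the 6 fits without 1 library.

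In shIMPDH2, where ABCC4 did not rise, ABCC11 and ABCC5 rose by 1.93 and 0.72 on the log2 scale (limma adjusted p = 0.00291 and 0.00268). ABCC6 rose by 0.50 (limma adjusted p = 0.0458). Each of these 3 calls ended in at least 2 fits without 1 library. For ABCC11 these were without shLuc replicate 1 or shIMPDH2 replicate 2 (adjusted p at most 0.0613), for ABCC5 without shLuc replicate 2 or shIMPDH2 replicate 1 (at most 0.0607), and for ABCC6 without any 1 library of either group (at most 0.227).

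The cAMP and prostaglandin list holds enzymes that make or break down ABCC4 cargo, and also a transporter, receptors and kinase subunits. Of its 22 tested genes, 1 rose and 8 fell in shIMPA1, and 3 rose and 4 fell in shIMPDH2. Over all genes 14% rose and 16.2% fell in shIMPA1, and 7.86% and 9.15% in shIMPDH2. PTGS2, the inducible cyclooxygenase, rose from 36.4 ± 3.04 (SD, n = 2) to 320 ± 115 (SD, n = 2) in shIMPA1 (log2 3.06, limma adjusted p = 1.6e-05). HPGD, which inactivates prostaglandins, rose in shIMPDH2 from 3210 ± 386 (SD, n = 2) to 10793 ± 783 (SD, n = 2) (log2 1.75, limma adjusted p = 3.16e-05), and stood at 3118 ± 469 (SD, n = 2) in shIMPA1. The adenylyl cyclase gene ADCY7 fell in shIMPDH2 from 104 ± 5.22 (SD, n = 2) to 33.6 ± 1.78 (SD, n = 2) (limma adjusted p = 0.00124). PTGES3 fell in shIMPA1 by 0.77 on the log2 scale (limma adjusted p = 0.00116). These 4 calls held in all 6 fits without 1 library.

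Of 20 tested genes of the calmodulin kinase and AMPK list, which act with CAMKK2, 5 rose and 5 fell in shIMPA1 and 4 rose and 4 fell in shIMPDH2. CAMK4, a kinase activated by CAMKK2, fell in shIMPA1 from 523 ± 9.65 (SD, n = 2) to 187 ± 62.4 (SD, n = 2) (limma adjusted p = 0.000402). PRKAA2, a catalytic subunit of AMPK, rose there from 915 ± 30.1 (SD, n = 2) to 1637 ± 46.4 (SD, n = 2) (limma adjusted p = 0.000726). CAMK2D rose by 1.00 on the log2 scale (limma adjusted p = 0.00201). These 3 calls in shIMPA1 held in all 6 fits without 1 library, beside a CAMKK2 difference of 0.05.

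Among the relatives of TRPM8, 13 other TRP channel genes were tested. Of these 2 rose and 2 fell in shIMPA1, and 2 rose and 1 fell in shIMPDH2, with medians of -0.22 and -0.17. TRPM2, a channel gated by ADP-ribose, was measured at 1812 ± 317 (SD, n = 2) with shLuc, 2443 ± 117 with shIMPA1 and 2791 ± 171 with shIMPDH2, and rose in both (limma adjusted p = 0.0328 and 0.0106). The TRPM2 calls ended without shLuc replicate 2, shIMPDH2 replicate 1 or shIMPDH2 replicate 2 (adjusted p at most 0.284 and 0.135). TRPV3, a heat-sensitive channel, fell in shIMPA1 from 44.4 ± 7.16 (SD, n = 2) to 12.3 ± 3.39 (SD, n = 2) (limma adjusted p = 0.00199), also in every fit without 1 library.

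CAMKK2 is known as an androgen-induced gene, and 21 other genes of that kind were tested. Of these 8 rose and 4 fell in shIMPA1, and 10 rose and 1 fell in shIMPDH2, with medians of 0.23 and 0.56. Of all tested genes, 14% and 7.86% rose. SLC45A3, a prostate membrane transporter, rose from 580 ± 17.2 (SD, n = 2) to 2656 ± 117 (SD, n = 2) in shIMPDH2, and TMPRSS2, the membrane protease, from 376 ± 35.8 (SD, n = 2) to 1516 ± 47.9 (SD, n = 2) (limma adjusted p = 1.56e-06 and 0.000197). KLK4, a kallikrein protease, rose in shIMPA1 from 3524 ± 382 (SD, n = 2) to 8643 ± 404 (SD, n = 2) (limma adjusted p = 4.58e-05). These calls held in all 6 fits without 1 library.

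Of 11 tested genes for prostate transcription factors, 5 rose and 4 fell in shIMPA1, and 4 rose and 3 fell in shIMPDH2. SPDEF rose in both, from 970 ± 37.1 (SD, n = 2) to 1509 ± 39.4 (SD, n = 2) and 3991 ± 34.1 (SD, n = 2) (limma adjusted p = 0.00189 and 1.61e-06). CREB3L4 rose 3.03-fold in shIMPDH2 and GATA2 2.41-fold in shIMPA1 (limma adjusted p = 2.52e-05 and 0.000212). GATA2 stood at a log2 difference of 0.02 in shIMPDH2, the group in which STEAP1 and STEAP2 rose. Calls named here held in all 6 fits without 1 library.

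Among 14 other prostate surface proteins tested, 5 rose in each knockdown, 4 fell in shIMPA1 and 3 fell in shIMPDH2. SLC43A1, an amino acid transporter, rose from 96.8 ± 3.18 (SD, n = 2) to 331 ± 3.01 (SD, n = 2) with shIMPA1 and 210 ± 5.70 (SD, n = 2) in shIMPDH2 (limma adjusted p = 2.44e-05 and 0.000855), and both calls held in all 6 fits without 1 library. OR51E1, an olfactory receptor family member of prostate cells, had 0 reads in shLuc, 59 in shIMPA1 and 22 in shIMPDH2. Against 3 reads over the shLuc group, it was at least 19.5-fold higher in shIMPA1 and at least 9.42-fold higher in shIMPDH2, limits that cover counting error only.

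**Figure D5:**
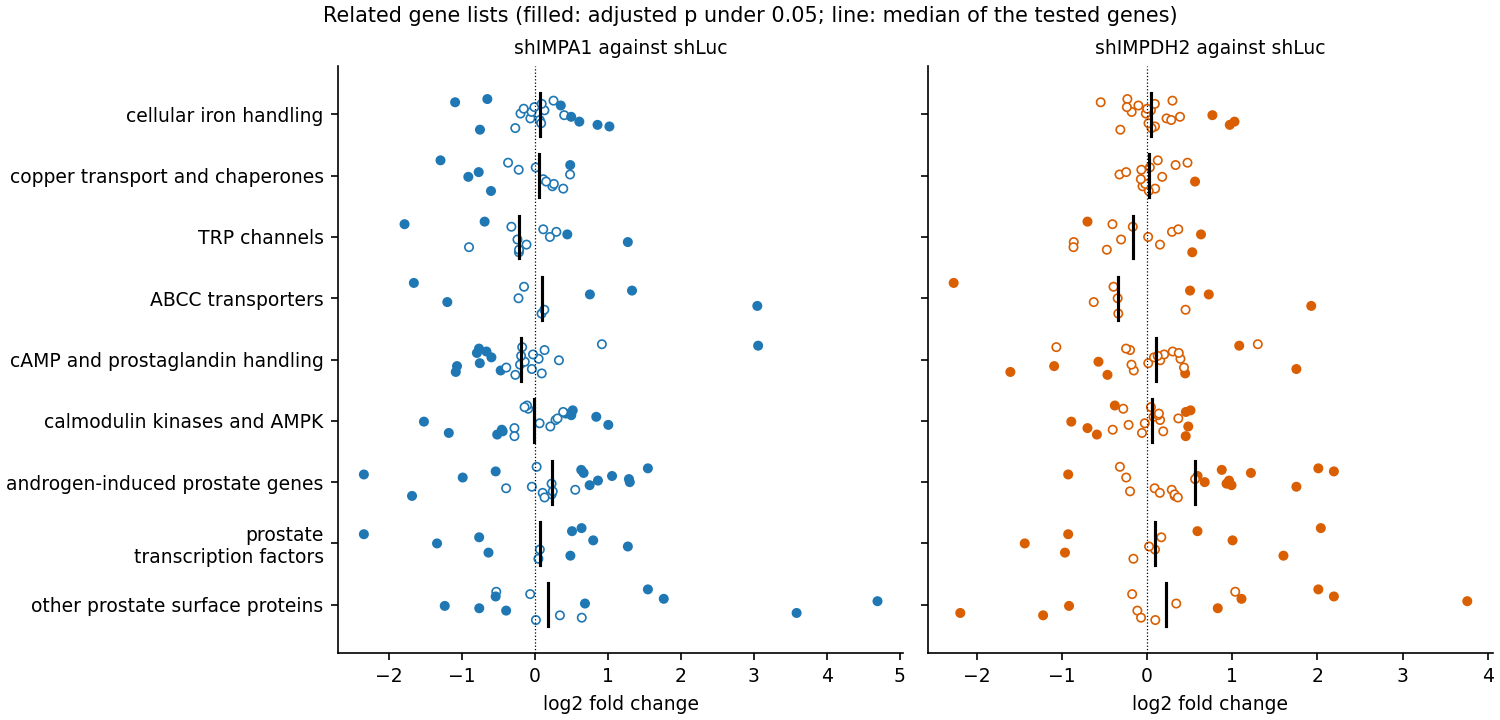
Log2 fold change (horizontal axes) of each tested gene of 9 related lists in the 2 comparisons with shLuc (points, filled where the limma adjusted p was under 0.05), with a vertical line at each list's median. In shIMPDH2 the androgen-induced list has its median at 0.56 and 10 filled points above 0, while the iron and copper lists have medians of 0.05 and 0.03.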

How the data were processed

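The submitters' processing notes name Trimmomatic 0.36, STAR 2.5.2b, featureCounts of Subread 1.5.2, DESeq2 and the build GRCh38. Per the labels' protocols, unique reads within exons were counted per gene. In the deposited signal values, every library has its own step, the worth of 1 read, and 99.98% to 100% of its genes are whole multiples of it within 0.05 reads. They are thus read counts scaled by 1 size factor per library before deposit. The authors' deposited log2 fold change, p-value and adjusted p-value columns belong to a comparison the header does not name and were not used.

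A gene was tested where 2 or more libraries reached a value of 10, with limma 3.58.1 (R 4.3.3, mean-variance trend, 3 residual degrees of freedom) on log2(value + 1), in 1 model over 6 libraries, with Benjamini-Hochberg adjustment over all genes. The added 1 makes fold changes of weakly expressed genes too small. The plan allowed for counts, and the normalized values led to limma, with edgeR 4.0.16 and DESeq2 1.42.0 run on the recovered reads as alternatives. The fit was tested on simulated data. Symbols and coordinates came from GENCODE release 29, and promoter windows from RefSeq (GRCh38.p14), which held all 7 names. The members and gene lists were chosen with earlier results of these data known. Named from each list were up to 4 genes with the smallest adjusted p against shLuc, the paralogs STEAP1B and CAMKK1, the 2 closest patterns and the nearest tested coding genes of each member, and the targets IMPA1 and IMPDH2. Some genes that met this rule are not reported here.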

Additional observations from a re-analysis of the deposited data

How the results depend on the processing

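With 2 libraries per group, calls depended on single libraries. Leaving out 1 library at a time, between 0 and 4 of the 6 genes were called in shIMPA1 against shLuc, 0 to 4 in shIMPDH2 against shLuc, and 1 to 3 between the knockdowns, and over all genes 2147 to 7940, 773 to 6386 and 1430 to 7052 were called, against 5361, 3018 and 4627 with all 6 libraries. A fit without a mean-variance trend called 3508, 1727 and 2909 genes, and 2, 1 and 1 of the 6. Comparing only the 2 groups called 6382 genes in shIMPDH2 against shLuc. The fits without 1 library and of 2 groups use fewer libraries, and in shIMPDH2 against shLuc their counts moved both up and down. The cause was not tested for these fits or for the fit without a trend, which used all 6.

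Over 285 values of the 6 genes under the alternatives (other pseudocounts, filters, TMM scaling, edgeR, DESeq2, a replicate block, fewer libraries), 257 stayed on the same side of the threshold, 23 lost the call, 5 gained one and no called value changed sign. Of 2727 values of 57 other named genes, 2531 stayed on the same side, 167 lost the call and 29 gained one. Of the calls of such genes, 25 of 42 in shIMPA1, 12 of 33 in shIMPDH2 and 17 of 32 between the knockdowns held in all 6 fits without 1 library. Uncalled values changed sign for CAMKK2 in shIMPA1 (-0.11 without shIMPA1 replicate 2) and, between the knockdowns without shIMPA1 replicate 1, for STEAP3 (0.08), STEAP4 (-0.40) and CAMKK2 (-0.05).

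The labels share replicate numbers without saying that they pair libraries, and same-numbered libraries did not deviate together (correlations 0.042, -0.049 and 0.000266). With the replicate number as a block, 5298, 2939 and 4537 genes and 2, 3 and 3 of the 6 were called. STEAP4 had 79 reads in all, and a filter at 50 left it untested.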
